A study of Mus musculus with 2 samples.

Results

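In melan-a melanocytes, 336 loci with EP300 peaks in both replicates were touched by no H3K4me1 region. They were taken from 3573 shared EP300 loci, each a merged interval of overlapping EP300 peaks with at least 1 peak from each of 2 replicate lists and an overlap of at least 1 bp. The members were chosen by 2 measured values, the positions of the EP300 peaks and of the H3K4me1 regions: a shared locus was included when no region overlapped it by 1 bp or more, which held for 9.40% of the shared loci (Clopper-Pearson 95% interval 8.47% to 10.4%). The other 3237 shared loci, all of which touch a region, served for comparison. Because these positions chose the members, the distances between the 2 marks and the lengths of the loci are given below as descriptions.

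The study mapped EP300 and H3K4me1 by chromatin immunoprecipitation followed by sequencing (ChIP-seq) in untreated melan-a cells, an immortalized mouse melanocyte line on a C57BL/6 background that carries Ink4a -/- in all libraries. The antibodies were anti-p300 for EP300 and anti-H3K4me1 for the histone mark, with input chromatin that saw no antibody as the control material. There are 2 peak lists for EP300, one for each replicate, but a single list for the 2 replicates of H3K4me1, and nothing in the labels says that replicates came from separate cultures. All cells are of a single line, and no gene was assigned to a locus, so melanocyte marker genes were not checked. Filtered EP300 tags numbered 31439027 in replicate 1 and 32355042 in replicate 2, while the files give no depth for H3K4me1. A locus without a region is therefore one without a called region, and H3K4me1 below the calling threshold was not detectable here.

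EP300 (p300) is a histone acetyltransferase and coactivator that is brought to DNA by transcription factors, and its ChIP-seq peaks are widely used to locate active enhancers. H3K4me1, monomethylation of lysine 4 on histone H3, marks the nucleosomes beside enhancers and often dips where the factors themselves are bound. At active promoters EP300 is also found, while H3K4me1 gives way to trimethylation of the same lysine around the start site. H3K4me3 was not measured in these samples, and neither start sites nor DNA sequence of the loci were analysed here.

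The strongest shared EP300 locus of all was one of the 336. It lay on chromosome 13 at 23851908 to 23854039 (mm9, as are all coordinates below) and had 585 tags in replicate 1 and 377 in replicate 2. Fold enrichment, the height of the peak summit over the local background as the authors' peak caller gave it, was 63.25 and 57.45, and the summits of the replicates lay 1 bp apart. This locus thus had nearly the same height in both lists, and its nearest H3K4me1 region, 250 bp wide, began 1061 bp beyond its edge. The next member by mean rank of significance was on chromosome 2 at 132077750 to 132079466, with 195 and 189 tags and 39.19-fold and 25.33-fold enrichment. It was the 40th strongest shared locus, with a region of 550 bp at a distance of 301 bp on its left and the next one 12034 bp away on its right. The member after it, on chromosome 1 at 193398623 to 193399904, had 188 and 138 tags and was 23.87-fold and 19.35-fold enriched. A region of 200 bp lay 1624 bp to its left.

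Below these 3, the members ranked 176th or lower among the shared loci. The locus at chromosome 17, 80526711 to 80528704, had 176 and 165 tags and 25.46-fold and 12.44-fold enrichment, with a region only 46 bp from its edge. Chromosome 5, 144981605 to 144983129, had the same tag count, 143, in each list and was 23.72-fold and 12.44-fold enriched, 56 bp from a region of 900 bp. At both loci another shared locus that does touch H3K4me1 lay close by, at 13 bp on chromosome 17 and at 496 bp on chromosome 5. Both are thus separate entries in the peak lists beside a near neighbour with H3K4me1.

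Among the 7 members that complete the 12 best-ranked, enrichment spanned 9.19-fold to 18.53-fold in the list of replicate 1, and 7.92-fold to 18.30-fold in that of replicate 2. On chromosome 8 at 56049545 to 56051055, 173 and 164 tags gave 13.15-fold and 7.92-fold enrichment. On chromosome 13 at 28509038 to 28510464 the values were 151 and 133 tags, with an almost equal 12.93-fold and 12.71-fold. The locus at chromosome 15, 27853185 to 27854279, had more tags in replicate 2, with 99 and 162, and 9.19-fold and 17.46-fold enrichment. It stood between 2 regions at 286 bp and 21 bp, so that the whole locus fell into a gap of 1400 bp. Regions on both sides were also seen at chromosome 3, 132527587 to 132528999 (14.50-fold and 10.40-fold), which lay 51 bp from a region of 3750 bp, and at chromosome 2, 125476004 to 125477672 (126 and 159 tags, 14.28-fold and 8.19-fold). Chromosome 5, 33994558 to 33995893 (15.19-fold and 18.30-fold), had a region 809 bp away, and chromosome 10, 120007511 to 120009190 (18.53-fold and 13.07-fold), had its nearest one at 3210 bp.

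**Figure D1:**
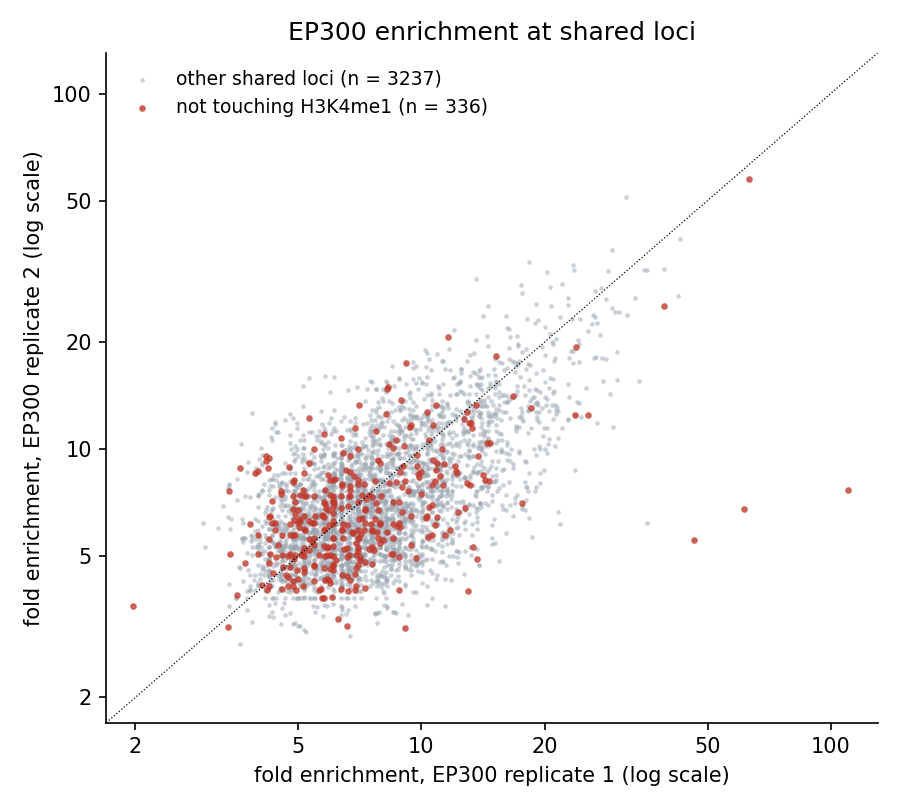
Fold enrichment of EP300 in replicate 1 (x axis) and replicate 2 (y axis), both on log scales, for the 336 loci not touching H3K4me1 (red) and the 3237 other shared loci (grey); the dotted line marks equal values. The red points overlap the grey ones over most of the range, with the strongest locus at 63.25 and 57.45, 3 red points far below the line, and 1 at 1.97 and 3.61.

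As a group the members were weaker than the other shared loci in each replicate. In replicate 1 their fold enrichment ran from 1.97 to 110.41 with a median of 6.59, against 7.49 for the others. In replicate 2 it ran from 3.14 to 57.45 with a median of 6.33, against 6.91. Tags per peak had a median of 53 against 65 in replicate 1 and of 60 against 74 in replicate 2, and the ranges of the 2 groups overlapped widely in each list. The members' peaks were also shorter, with medians of 953 bp against 1063 bp and of 1028 bp against 1147 bp. Per kb of peak the difference in tags was smaller, with medians of 54.0 against 60.2 and of 56.7 against 62.4. On the scale of percentile rank by significance within a list, where 100 is strongest, the members had a median of 64.9 and the others of 76.8 in replicate 1, and in replicate 2 the medians were 71.3 and 80.5. The differences of -12.0 and -9.18 percentile points had the same sign and differed from each other by less than either one. Loci of one sample share their library and are not replicates, and 2 replicates of one condition allow no test between groups of samples, so no p-values are given.

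Counts at fixed levels showed the same order. A fold enrichment of at least 10 in both replicates was reached by 21 members (6.25%, interval 3.91% to 9.40%), whereas it was reached by 13.2% of all shared loci. A fold enrichment under 5 in both was found for 22 members (6.55%, interval 4.15% to 9.75%). This interval includes the 4.42% of all shared loci. The false discovery rate given by the peak caller was 0 in both lists for 52 members (15.5%), against 24.6% of all shared loci. In the strongest quintile of mean rank there were 34 members (10.1% of the members), where 20.0% of all shared loci lie by construction. Members near the bottom of the list included chromosome 1, 67599514 to 67600491, with 32 and 23 tags, chromosome 16, 58519292 to 58520290, with 35 tags in each list, and chromosome 4, 34203710 to 34204714, with 25 and 27.

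Seen from the other side, the share of shared loci without a touching region was smallest among the strongest ones. From the weakest to the strongest quintile of EP300 rank it was 15.1%, 10.9%, 8.25%, 7.98% and 4.76%, with intervals of 12.6% to 17.9% in the weakest and 3.32% to 6.58% in the strongest. The 63 members more than 10000 bp from any region were the most unevenly spread, with 31 in the weakest quintile and 16, 8 and 8 in the next ones. None of the 715 loci in the strongest quintile was that far from a region, which allows a share of up to 0.515% by the same kind of interval. Members with a region within 1000 bp made up 7.41% of the weakest quintile and 3.08% of the strongest.

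**Figure D2:**
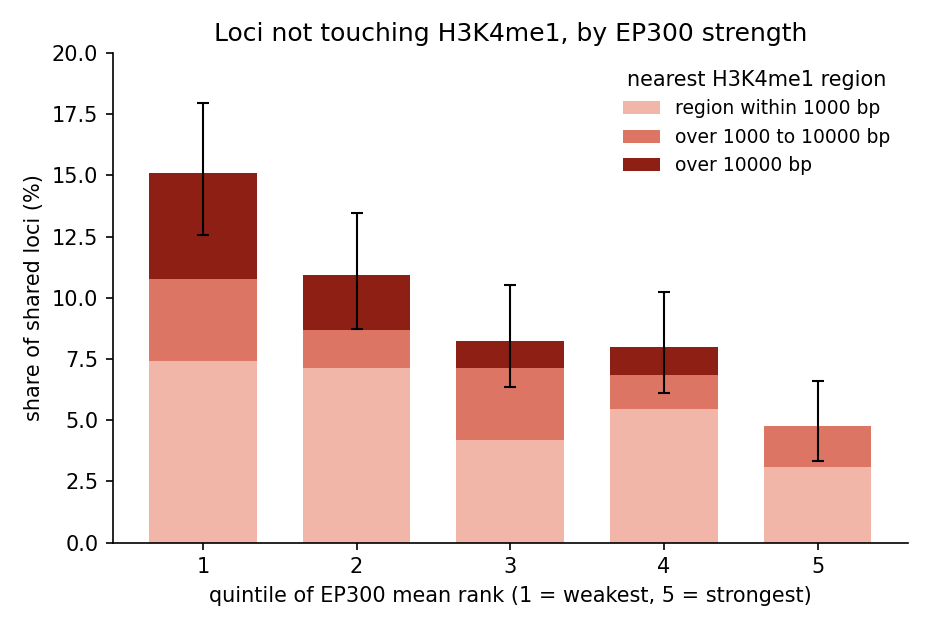
Share of shared EP300 loci that do not touch H3K4me1 (y axis, percent) in each quintile of mean EP300 rank (x axis), split by distance to the nearest region; error bars are Clopper-Pearson 95% intervals of the whole bar. The bars go from 15.1% in the weakest quintile to 4.76% in the strongest, where the class over 10000 bp is empty.

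Length is tied to the way the members were chosen, since the chance of touching a region grows with the span of a locus. The members had a median length of 1182.5 bp (quartiles 1004.5 bp and 1457.5 bp), and the others of 1285 bp. Within the shortest quartile of all shared loci 13.3% were members, within the next ones 8.85% and 9.06%, and within the longest 6.39%. The members' median percentile rank stayed below that of the other loci inside each length quartile. In replicate 1 the pairs of medians were 50.1 and 60.0, 69.8 and 75.5, 68.3 and 80.9, and 80.8 and 88.3 from the shortest quartile to the longest. In replicate 2 they were 51.9 and 61.9, 71.8 and 78.0, 79.8 and 84.3, and 88.4 and 91.1.

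The difference in percentile rank nearly disappeared when every locus was judged over the same length. With a window of 500 bp on each side of the locus centre, 544 loci (15.2%) had no H3K4me1 region, and their median percentile rank differed from the rest by only -0.59 in replicate 1 and -0.71 in replicate 2. These 544 held 324 of the 336 members and 220 loci that met a region farther out but inside their edges. The 220 were long, with a median of 1672 bp, and ranked high by significance. Their median percentile ranks were 86.5 and 88.0, against 64.9 and 71.5 for the 324 members among the 544. Their fold enrichment had medians of 7.83 and 6.79, against 6.58 and 6.35 for the 324. For all 3237 loci that touch a region these medians were 7.49 and 6.91, so in replicate 2 the 220 were not above them. The length of the 220 was set by the choice, since only a long locus can meet a region inside its edges but not within 500 bp of its centre. In the longest quartile, the loci that touch H3K4me1 had median percentile ranks of 88.3 and 91.1, close to those of the 220. Their median fold enrichment, 8.49 and 7.84, was higher than that of the 220.

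H3K4me1 was nevertheless close to most members. The nearest region was 1 bp to 1516067 bp away, with a median of 613 bp (95% interval of the median 505 bp to 826 bp). It was within 100 bp of 58 members (17.3%), within 1000 bp of 195 (58.0%, interval 52.6% to 63.4%) and within 10000 bp of 273 (81.3%). Regions stood within 1000 bp on both sides of 64 members (19.0%) and on a single side of 131 (39.0%). A further 78 (23.2%) had their nearest region at over 1000 and up to 10000 bp, 37 (11.0%) at over 10000 and up to 50000 bp, and 26 (7.74%) farther away.

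**Figure D3:**
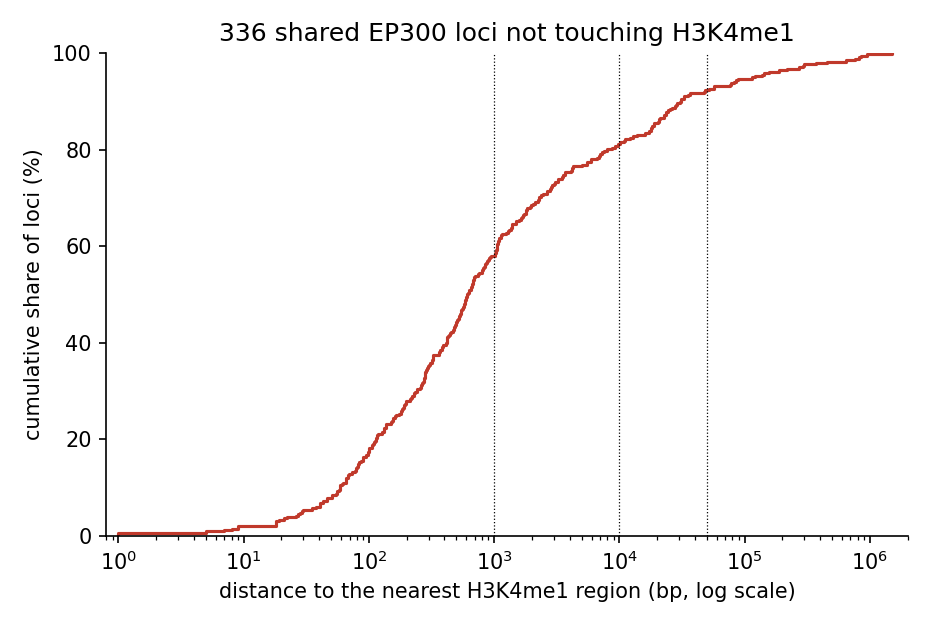
Cumulative share of the 336 loci (y axis, percent) by distance to the nearest H3K4me1 region (x axis, bp, log scale); dotted lines mark 1000, 10000 and 50000 bp. The curve passes 58.0% at 1000 bp and 92.3% at 50000 bp.

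Membership at the border rested on a few base pairs. The loci at chromosome 13, 99961500 to 99962375 and chromosome 7, 109440097 to 109441099, lay 1 bp from a region. They were enriched 5.02-fold and 6.35-fold, and 10.87-fold and 8.71-fold. Another member on chromosome 7, at 26566154 to 26567737, lay 5 bp from a region with 5.99-fold and 8.18-fold enrichment. Just outside, the shared locus at chromosome 5, 81710655 to 81711950 (4.90-fold and 5.45-fold), overlapped a region by 1 bp, chromosome 4, 22213453 to 22214702 (8.02-fold and 5.64-fold), by 3 bp, and chromosome 12, 74302244 to 74303103 (6.38-fold and 5.64-fold), by 4 bp. Region edges of the H3K4me1 list lie on a grid of 50 bp, which is wider than these distances.

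The 64 members flanked on both sides lay in H3K4me1 gaps of 850 bp to 3700 bp, with a median of 1800 bp. Their fold enrichment had medians of 6.37 and 6.31 in the 2 replicates, close to the 6.68 and 6.49 of members with a region on a single side. Medians were 6.99 and 6.32 for members at over 1000 to 10000 bp, 6.08 and 6.10 at over 10000 to 50000 bp, and 6.61 and 5.45 beyond 50000 bp. Tags showed a larger step, from 57 and 63 for the flanked members to 46.5 and 45 for those beyond 50000 bp. The peaks were also shorter there, with median lengths of 837.5 bp and 832.5 bp against 1011.5 bp and 1058 bp. Tags per kb went only from 55.8 and 58.7 to 53.4 and 51.7. In percentile rank the step was from 65.7 and 76.5 to 52.7 and 50.8. Of the 21 members that were at least 10-fold enriched in both lists, 9 were in the class with H3K4me1 on a single side (6.87%) and 8 lay at over 1000 to 10000 bp (10.3%). The flanked members held 3 (4.69%), the class at over 10000 to 50000 bp none, and the farthest class 1 (3.85%), where 13.2% of all shared loci reach this level.

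Around the centres of the members, H3K4me1 was found farther out and far less often than around the other loci. The share of members inside a region was highest at 1250 bp on either side, with 16.1% on the left and 22.3% on the right. For the other loci it was highest at 650 bp on the left and 600 bp on the right, with 74.4% and 74.9%. Within the locus the difference is set by the choice of members. At 5000 bp from the centre, beyond the edges of nearly all loci, the share was 8.33% for members and 13.7% for the others.

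**Figure D4:**
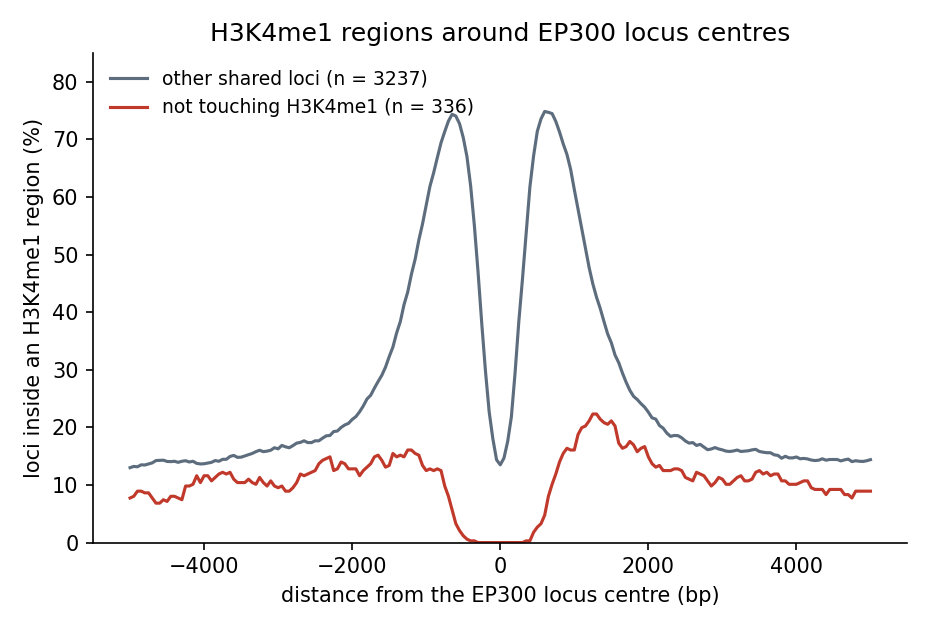
Share of loci inside an H3K4me1 region (y axis, percent) by distance from the locus centre (x axis, bp) in steps of 50 bp, for the 336 members (red) and the 3237 other shared loci (grey-blue). The members have 0 at the centre by choice and low shoulders of up to 16.1% and 22.3% at 1250 bp, while the others peak at 74.4% and 74.9%.

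The wider surroundings of the members were also poorer in called H3K4me1. In the ring from 5 to 50 kb beyond the edges, which was not used to choose them, members had a median of 5 regions (quartiles 2 and 10) and the other loci of 8 (quartiles 3 and 13). The flanked members had 7 and those with a region on a single side 6, between the 5 of all members and the 8 of the others. By length quartile, from shortest to longest, members and others had medians of 4 and 6, 7 and 7, 5 and 8, and 7 and 9. The second quartile thus showed no difference. The region nearest to a member had a median width of 450 bp and a median percentile rank of 49.2 within the H3K4me1 list, the middle of that list. For the other loci, the touching region with the longest overlap was 900 bp wide in the median, at a percentile rank of 81.4, but wide regions are touched more readily.

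The members farthest from H3K4me1 lay in long stretches with no called region. The locus at chromosome 3, 43749454 to 43750483, had 67 and 64 tags, 12.76-fold and 6.82-fold enrichment and no region for 1516067 bp on its nearer side. It was also 1703469 bp from the next shared EP300 locus. Next came chromosome 17, 39979456 to 39986263, at 954087 bp, which is described below. Chromosome 8, 20019873 to 20020744 (4.67-fold and 4.41-fold), was 857424 bp away, and chromosome 6, 63401923 to 63403260 (5.88-fold and 5.27-fold), 816990 bp. Chromosome 18, 86118802 to 86120119 (5.91-fold and 5.29-fold), was 760931 bp away, and chromosome 1, 124253420 to 124254374 (6.53-fold and 8.74-fold), 646721 bp.

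By mean rank among the 3573 shared loci, the far members on chromosomes 3 and 17 were 1172nd and 1280th, in the second strongest quintile. The other 4 were all in the weakest quintile, with the one on chromosome 8 at 3552nd. Of the 26 members beyond 50000 bp, 1 was at least 10-fold enriched in both lists. This was chromosome 16, 14826801 to 14827725, with 78 and 51 tags and 13.22-fold and 11.81-fold enrichment, 57025 bp from a region. At chromosome 5, 58857430 to 58858365, 290281 bp from a region, 82 and 58 tags gave 12.20-fold and 8.58-fold. These 2 loci, chosen after their values were seen, had a local background, worked out as described below, of at most 1.27 times the genome-wide level. Among the 6 farthest members, leaving out the one on chromosome 17, the local background was 1.00 to 2.42 times in replicate 1. In replicate 2 it was 1.11 to 1.72 times, and the locus on chromosome 1 was highest in both.

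A very high tag count set one member apart. With 6808 bp, the locus at chromosome 17, 39979456 to 39986263, exceeded every other shared locus in length, and it held 7284 tags in replicate 1 and 7916 in replicate 2. That is 1095 and 1163 tags per kb, whereas the members' medians were 54.0 and 56.7. Its fold enrichment was the lowest in replicate 1, at 1.97, and 3.61 in replicate 2. The local background, worked out from the tag count and the significance of a peak, was 62.0 times the genome-wide level in replicate 1, and at least 19.0 times in replicate 2. Its summits were 2661 bp apart in the 2 lists. Over such a background the tag count alone is no measure of EP300 binding, and whether the tags come from a single copy of this sequence was not tested.

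One more member, on chromosome 11 at 108872492 to 108873864, had a background of over 10 times the genome-wide level, and it is named here after its values were seen. These 2 are 0.595% of members, and 0.0560% of all shared loci. It held 413 and 439 tags with 4.26-fold and 6.48-fold enrichment over a background of 14.7 and 11.6 times. No other shared locus whose background could be solved exceeded 3.17 times. In general the members' background was no higher than elsewhere, with medians of 1.14 and 1.16 times in the 2 lists, against 1.18 and 1.29 times for the other loci. A background of at least 1.5 times was found for 14.8% and 20.1% of members, and for 20.0% and 25.5% of the others. Leaving out the 2 loci of very high background moved the percentile differences to -11.95 and -9.29.

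The remaining long members had ordinary tag counts. Chromosome 17, 34257291 to 34260024, was 2734 bp long, with 139 and 84 tags and 13.06-fold and 11.81-fold enrichment, 1126 bp from a region. Chromosome 10, 17440678 to 17443382, was 2705 bp long, with 74 and 68 tags and 6.08-fold and 4.57-fold. Chromosome 19, 34625455 to 34628130, was 2676 bp long, with 97 and 116 tags and 7.43-fold and 5.22-fold, in a gap between regions at 606 bp and 270 bp.

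The replicates agreed on most members, but 3 stood far apart. At chromosome 12, 86814315 to 86815508, replicate 1 had 770 tags and 110.41-fold enrichment, while replicate 2 had 46 tags and 7.67-fold. At chromosome 15, 78993337 to 78995185, the tags were 2620 and 38, with 46.24-fold and 5.56-fold enrichment. On chromosome X, at 103381762 to 103382866, the tags were 318 and 38, with 61.36-fold and 6.79-fold. The summits of the replicates lay 24 bp and 56 bp apart on chromosomes 12 and X. On chromosome 15 they lay 850 bp apart, so its 2 fold values were read at different places in the locus. In each of the 3 the high value was in replicate 1, while the tags in replicate 2 lay below the members' median of 60. Whether the tags of replicate 1 at these loci all came from chromatin of these cells was not tested, so their fold values there may not measure EP300. A tag ratio over 8 was found for 0.893% of members and for 0.140% of all shared loci, among them 2 of the 3237 others. The log2 of the ratio between the fold enrichments of replicates 1 and 2 had an SD of 0.60 across all members and of 0.51 without these 3.

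Only 6 bp separated the unbalanced locus on chromosome 15 from another member, at 78995191 to 78996924. That neighbour was balanced, with 83 and 87 tags and 6.57-fold and 6.11-fold enrichment. The members with the lowest ratios were much less extreme. Chromosome 13, 9276681 to 9278085, was 3.61-fold and 8.85-fold enriched, chromosome 10, 109317540 to 109318813, 5.30-fold and 12.25-fold, and chromosome 11, 86570392 to 86572165, 4.18-fold and 9.53-fold. Across the members the median log2 ratio was 0.11, compared with 0.10 for the other loci.

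Summits matched less closely at the members' upper end. Their summits lay a median of 76.5 bp apart (95% interval of the median 60 bp to 90 bp), against 67 bp for the other loci. This interval includes the 67 bp, and the 141 members with no region within 1000 bp had a median of 63 bp. By length quartile, from shortest to longest, the medians of members and others were 59 and 63, 68 and 63, 109 and 71, and 89 and 70 bp. More than 200 bp separated the summits of 81 members (24.1%, interval 19.6% to 29.0%), while this was the case at 16.5% of all shared loci. The third quartile was 190.5 bp for members and 136 bp for the others. Among the 12 best-ranked members the summits lay at most 88 bp apart.

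Most members, like most shared loci in general, had no other shared locus within 10 kb. Another shared locus lay within 10 kb of 62 members (18.5%, interval 14.4% to 23.0%), against 22.6% of all shared loci, and in 54 cases this was a locus that touches H3K4me1. The nearest shared locus was a median of 124808 bp away, against 53336 bp for the others. Another member lay within 10 kb of 10 members (2.98%, interval 1.44% to 5.41%), against 1.88% of all shared loci and 1.76% of the others. These 10 formed 5 pairs, and there was no group of 3. Besides the pair on chromosome 15, the closest was on chromosome 1, at 14294270 to 14295659 and 14296107 to 14297173, 448 bp apart. The first was 8.95-fold and 7.84-fold enriched, its neighbour 9.99-fold and 7.48-fold. On chromosome 13 the strong locus at 28509038 to 28510464 had a weaker one, at 28511315 to 28512359 (4.22-fold and 8.85-fold), 851 bp away. On chromosome 10, the members at 98723656 to 98726281 and 98727608 to 98729117 lay 1327 bp apart, the first with 7.07-fold and 4.96-fold enrichment and the other with 11.37-fold and 9.08-fold.

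By chromosome, the share of shared loci that were members ranged from 3.70% to 30.8%. It was lowest on chromosome 14, with 5 of 135 loci (interval 1.21% to 8.43%), and on chromosome 15, with 10 of 195 (5.13%, interval 2.49% to 9.23%). On chromosome 10 it was 15.3%, with 31 of 203 loci (interval 10.6% to 21.0%). Chromosome X had few shared loci, but 8 of its 26 were members (30.8%, interval 14.3% to 51.8%), against 9.25% on the autosomes. The intervals of chromosomes 10 and X lay above the overall 9.40% and those of 14 and 15 below it. These intervals are not adjusted for 20 chromosomes and cover counting error only.

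The 8 loci on chromosome X lay close to H3K4me1, as did most members. All were within 8033 bp of a region and 5 within 1000 bp, where 58.0% of all 336 members lay. With a limit of 1000 bp in place of touching, the share on X was 3 of 26 (11.5%, interval 2.45% to 30.2%). Among all shared loci it was 3.95% with that limit. The best-ranked of them was the unbalanced locus at 103381762 to 103382866. The next, chosen after its values were seen, was at 166230630 to 166231667, with 63 tags in each list and 11.24-fold and 9.97-fold enrichment, 133 bp from a region.

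**Figure D5:**
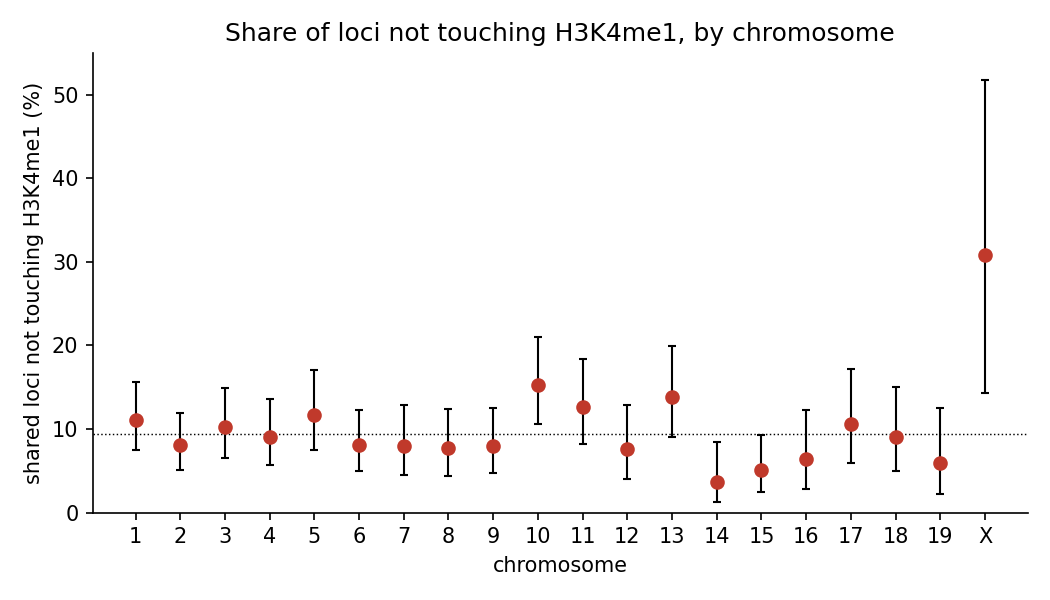
Share of shared EP300 loci that do not touch H3K4me1 (y axis, percent) on each chromosome (x axis), with Clopper-Pearson 95% intervals as error bars; the dotted line marks the 9.40% of all chromosomes. Chromosome X stands at 30.8% with a wide interval from 26 loci, and chromosomes 14 and 15 are lowest at 3.70% and 5.13%.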

How the data were processed

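Per the file headers, the authors ran MACS 1.4.1 (20110627) on the EP300 library of each replicate with that replicate's control, at a p-value threshold of 1e-05 and with at most 2 duplicate tags per position. Coordinates are mm9, per the submitters' processing notes, with no aligner named there. Each deposited EP300 peak has a tag count, a significance score of 10 times the -log10 of the p-value, a fold enrichment ratio and a percent false discovery rate. The deposited H3K4me1 list gives each region a rank, a score, a log2 fold change, a -log10 p-value and a false discovery rate (a q-value); no source used here names its caller. All these values are the authors' and only describe or rank peaks within their list.

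Shared loci, distances (adjacent intervals are 1 bp apart), medians and shares were computed with Python 3.11.15, numpy 2.4.6, pandas 2.3.3 and scipy 1.17.1. A locus takes its tags and fold enrichment from its best-ranked pair of overlapping peaks, and its centre from the midpoint of their overlap. Local background was solved from the Poisson tail for peaks with a significance under 1000, over the peak length or 400 bp if longer; above that, a lower bound is the tag density divided by the fold enrichment. Intervals of shares are Clopper-Pearson, and those of medians come from order statistics. The functions were tested on simulated data. Members and lists were chosen with earlier results of these data known. Loci named are the 12 best-ranked members, the 6 farthest from H3K4me1, the 4 longest, the 3 with the highest and lowest replicate ratios, the 4 closest pairs, the 3 nearest to the border on each side, the 3 worst-ranked and the best-ranked on X; others are said to be chosen after their values were seen. Alternatives covered the overlap rule, the distance limit, the upper 50% of each list and single replicate lists.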

Additional observations from a re-analysis of the deposited data

How the results depend on the processing

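The members' median percentile rank was below that of the other loci in all 18 alternatives for the 2 replicates, but its size moved with how a locus was counted as free of H3K4me1. Requiring no region within 500 bp of the edges gave 187 loci (5.23%) with differences of -14.9 and -14.6 percentile points in replicates 1 and 2, and within 1000 bp 141 loci (3.95%) with -14.2 and -14.3. With a window of 500 bp on each side of the centre the share was 15.2%, the differences were -0.59 and -0.71, and the length difference reversed from -102.5 bp to 101 bp, since loci then count as free whatever lies at their ends. The upper 50% of H3K4me1 regions left 19.4% of loci free, with differences of -9.83 and -10.9 in replicates 1 and 2, and a median distance of 5981.5 bp among the loci then free. The upper 50% of each EP300 list gave 7.38%, with -3.19 and -3.53, on a shortened scale of ranks. Length differences were -122 bp and -147 bp with the limits of 500 bp and 1000 bp, -109 bp and -90 bp with the upper 50% of H3K4me1 and of EP300, and -117 bp with an overlap of 50% of the shorter peak. With all peaks of one list in place of shared loci, the share ranged from 41.6% (without EP300 replicate 2) to 44.3% (without EP300 replicate 1), the percentile differences were -37.9 and -38.0, and the length differences -322 bp and -360 bp. The share on chromosome X went from 30.8% to 11.5% with the limit of 1000 bp. Measured from the centre, the median distance was 1331 bp. With neighbours within 20 kb there were 8 pairs of members in place of 5. Leaving out loci with a tag ratio over 8, or with a background over 10 times the genome-wide level, was chosen after seeing the data and moved no value beyond its spread. No paired analysis was possible because there is a single EP300 condition and the H3K4me1 replicates come in one list. Start sites, gene lists and sequence features were not run, as no mm9 annotation or genome was used here. Intervals cover counting error only, and no depth is given for H3K4me1.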

Other observations

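EP300 peaks found in a single list were free of H3K4me1 far more often than those in shared loci. Replicate 1 had 4829 such peaks, of which 3020 touched no region (62.5%, interval 61.2% to 63.9%). Replicate 2 had 6748, of which 4159 touched none (61.6%, interval 60.5% to 62.8%). For peaks that overlapped a peak of the other list, the shares were 13.7% and 11.8%. Here each peak was judged over its own span, so some belong to shared loci that touch a region elsewhere. Over all peaks of a list, those without a region were shorter. Median lengths were 669 bp against 991 bp in replicate 1 and 679 bp against 1039 bp in replicate 2. The shares were not adjusted for length. The single-list peaks without a region lay a median of 28337.5 bp and 28959 bp from the nearest one, compared with 376.5 bp and 477 bp for the shared peaks without one.

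These single-list peaks were also weaker. Their median fold enrichment was 5.16 in replicate 1 and 5.03 in replicate 2, with 29 and 30 tags, against 6.63 and 6.19, with 52 and 58 tags, for shared peaks without a region. A fold enrichment of at least 10 was reached by 8 of the 3020 and 6 of the 4159, but by 87 of 496 and 46 of 424 shared peaks without a region. Being found in both lists depends on strength, so these groups differ in strength by choice.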
